A study of Mus musculus with 14 samples.

Results

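Mouse embryonic fibroblasts (MEFs), connective tissue cells grown from mouse embryos, were compared after 6 h and after 3 h without glucose, over all genes. The comparison rests on 4 of the 14 RNA sequencing libraries of the series, 2 at each time, chosen by their labels (glucose starvation, time point and replicate number). All 40800 genes of the deposited count table entered it, each represented by the transcript with the most reads over the 14 libraries, and 17696 genes had enough reads to be tested. Cells of both times had been plated in high glucose medium with serum, washed, given glucose-free medium with dialyzed serum for 6 h or 3 h, detached with trypsin and frozen in dialyzed serum with DMSO. Both times thus share medium, serum and handling, and no library of untreated cells enters the comparison. The 12 h libraries of glucose starvation and the 6 h and 3 h libraries of amino acid starvation were made in the same way, with amino acid-free medium in place of glucose-free medium for amino acid starvation, whereas untreated cells (0 h) kept their medium and were stored in regular serum. The labels give no genotype, strain or passage of the MEFs, and they name a lipid transfection without saying that any of these samples received it. Nothing in them says that the 2 libraries of a time are from separate cultures, so the spread between such libraries may be technical. The p-values rest on this spread between libraries of the same group, pooled over all 7 groups of the series.

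The 6 h libraries held 35829315 and 42380980 reads and the 3 h libraries 35270751 and 37089789 reads, within the range of all 14 libraries (35270751 to 55349673). Transcripts of the mitochondrial genome made up 6.22% and 6.42% of the reads after 6 h, against 6.58% and 6.5% after 3 h. Levels are CPM, counts scaled to library size with TMM factors and not corrected for transcript length, and are compared between libraries and not between genes. The sums of marker genes below are the exception and serve only as a description. The first principal component of the 4 libraries, with 56.8% of their variance, set both 6 h libraries apart from both 3 h libraries. Strand use in counting is not given in the sources used here, and 77 of the 232 genes named in the results and found in the annotation have exons that overlap another gene (Scd2, Lss, Hmgcs1, Elovl6, Txnip, Ddit3, Sqstm1, Ccn2, Has2, Ank2, Ereg, Atf5, Ccnd1, Slc2a1 and Hspa8 among them), so that reads of the partner cannot be told apart there. Of 11 fibroblast markers, 0 were at 0 CPM, and their summed level was 8989.6 to 9073 CPM after 6 h, against 9739 to 9946 CPM after 3 h. Thy1 was the marker with too few reads to be tested. Of the 10 that were tested, the receptor gene Pdgfrb was higher and 6 were lower, the receptor gene Pdgfra most (log2 fold change -1.18). Among markers of other cell types, the neural list stood highest, and Nes, an intermediate filament gene that cultured fibroblasts can express, carried most of its sum (337.9 to 343.8 CPM after 6 h, against 398.7 to 423.5 CPM after 3 h, with Sox2 and Olig2 at 0). Of its 3 tested members Nes and Map2, a neuronal microtubule protein, fell (log2 fold changes -0.41 and -0.62), and Tubb3, a tubulin of neurons, rose. Tubb3 was at 57.9 and 58.2 CPM after 6 h, against 30.4 and 32.8 CPM after 3 h (edgeR log2 fold change 0.88, SE 0.088, adjusted p = 5.13e-09). The endothelial list summed to 17.6 to 18.2 CPM after 6 h, against 21.8 to 23.0 CPM after 3 h, and the macrophage list to 27.2 to 27.3 CPM after 6 h, against 25.3 to 27.5 CPM after 3 h, with Cldn5 and Adgre1 at 0. Kdr carried most of the endothelial sum and Csf1r most of the macrophage sum, with means of 19.75 and 16.76 CPM over the 4 libraries. Skeletal muscle markers summed to 4.72 to 4.83 CPM after 6 h, against 6.38 to 7.13 CPM after 3 h. Adipocyte markers summed to 3.68 to 3.96 CPM after 6 h, against 4.45 to 5.87 CPM after 3 h, with 4 of 6 at 0. Epithelial markers reached at most 0.40 CPM in sum after 6 h, against 0.45 CPM after 3 h, and erythroid markers 1.11 CPM after 6 h, against 1.08 CPM after 3 h. The part of these cells in the results was not tested, and in bulk RNA fewer cells of a type and less RNA per cell cannot be told apart.

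Glucose feeds glycolysis, the pentose phosphate pathway and the hexosamine pathway, which makes the sugar donors for glycosylation of proteins in the endoplasmic reticulum (ER). Loss of these sugars is a classical trigger of the unfolded protein response, in which ER chaperones are induced, and of the integrated stress response, in which the transcription factor ATF4 induces genes of amino acid supply. SREBP transcription factors control the genes of cholesterol and fatty acid synthesis, and immediate early genes are a rapid and usually transient answer to a change of medium, growth factors or stress.

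Between 3 h and 6 h without glucose, genes of cholesterol and fatty acid synthesis, ER chaperones and targets of ATF4 rose, and immediate early genes, feedback inhibitors of MAP kinases, growth factor ligands and inflammatory genes fell. Of 17696 genes tested, 5898 (33.3%) had a Benjamini-Hochberg adjusted p under 0.05 in the quasi-likelihood test of edgeR. Of these, 3149 (17.8% of those tested) were higher and 2749 (15.5%) were lower after 6 h. Which direction held more genes depended on the processing. With RLE size factors 2812 were higher and 3047 lower, with DESeq2 2727 and 2970, and with halved counts 2819 and 2980. With only the groups compared 2480 were higher and 2620 lower, and with no filter on low counts 2774 and 2999. Library totals gave 3725 higher and 2404 lower. A change of at least 2-fold was found in 900 called genes, of which 444 were higher and 456 lower, and the median size of a called change was 0.44 on the log2 scale. The median log2 fold change of all genes tested was 0.021. Genes said to rise or fall passed this test. For lists of genes, the numbers that passed in each direction are to be read against these shares of all genes. Some genes stand in several lists. The lists were put together with earlier results of these data known and are described, not tested. Of the genes given with values, 187 follow a fixed rule and 47 were named after their values were seen. Where the levels of all 4 libraries are given, the 6 h libraries did not overlap with the 3 h libraries, except in Txnip, Sesn2, Map1lc3b, Hgf and Epgn.

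**Figure D1:**
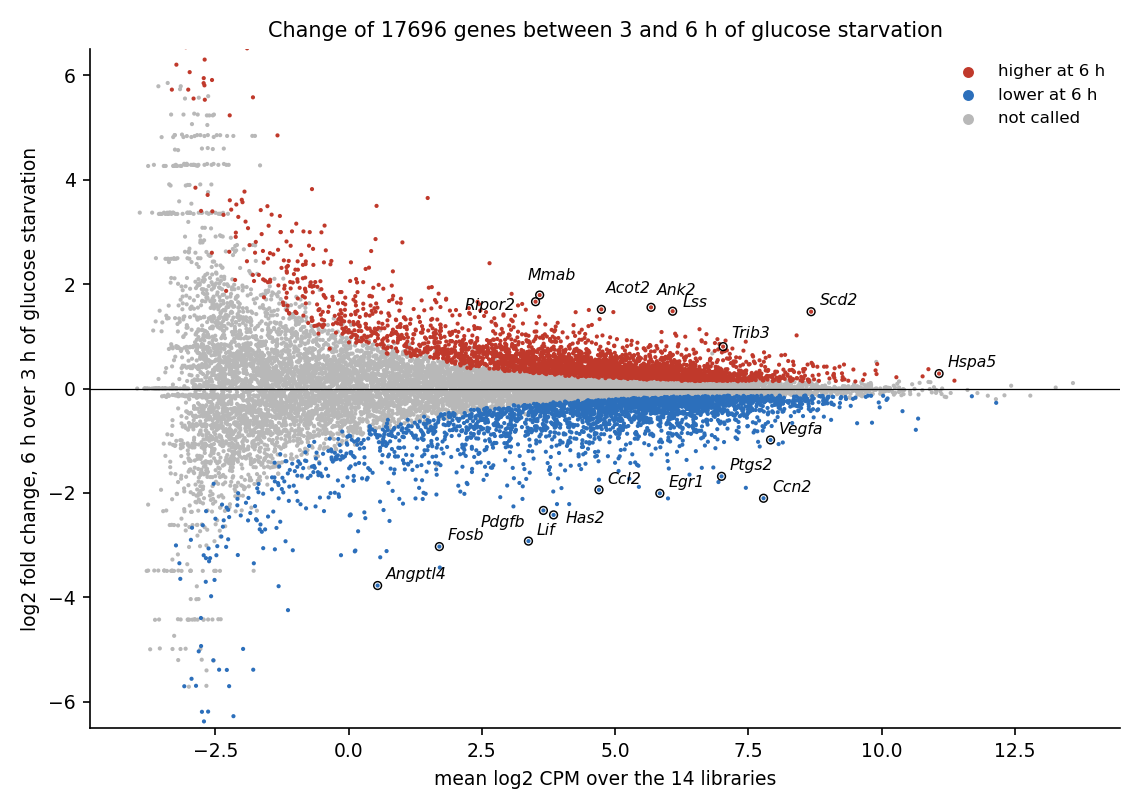
Log2 fold change of the 17696 genes tested (6 h over 3 h of glucose starvation, vertical axis) against their mean log2 CPM over the 14 libraries (horizontal axis), coloured by the test at an adjusted p of 0.05, with 10 genes outside the plotted range. Circled genes such as Scd2 and Lss lie above 1 and Lif, Has2, Ccn2 and Ptgs2 lie below -1, and the stripes at the left are genes of few reads.

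Among genes whose mean log2 CPM reached 3, the large increases included that of Mmab, a mitochondrial enzyme that makes the active form of vitamin B12. Mmab was at 24.9 and 24.3 CPM after 6 h, against 6.32 and 7.86 CPM after 3 h (edgeR log2 fold change 1.79, SE 0.12, adjusted p = 1.35e-12). Ripor2, an inhibitor of the GTPase RhoA, was at 49.2 and 47.6 CPM after 6 h, against 16.8 and 13.8 CPM after 3 h (edgeR log2 fold change 1.66, SE 0.10, adjusted p = 1.82e-13). Both 6 h libraries lay above both 3 h libraries for both genes. The mitochondrial coenzyme A carrier Slc25a42, the secreted protease Mmp28, the membrane adaptor Ank2 (ankyrin B), the mitochondrial acyl-CoA thioesterase Acot2 and the cationic amino acid carrier Slc7a3 followed, with log2 fold changes of 1.62, 1.59, 1.56, 1.52 and 1.51. Ank2 was at 86.7 and 86.6 CPM after 6 h, against 30.4 and 28.6 CPM after 3 h (edgeR log2 fold change 1.56, SE 0.071, adjusted p = 3.04e-16). Acot2 was at 24.5 and 26.3 CPM after 6 h, against 8.49 and 9.27 CPM after 3 h, and its near-identical neighbour Acot1 was at 2.96 and 3.37 CPM after 6 h, against 0.873 and 1.07 CPM after 3 h, so that reads could be shared between them. Sterol and fatty acid genes (Nsdhl, Lss, Scd2 and Mvd) were also among the 12 largest increases.

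Secreted factors and transcription factors were among the largest decreases. Lif, a cytokine of the interleukin 6 family, was at 6.90 and 7.38 CPM after 6 h, against 56.2 and 52.2 CPM after 3 h (edgeR log2 fold change -2.92, SE 0.10, adjusted p = 1.74e-18). Has2, which makes the matrix sugar hyaluronan, was at 17.2 and 18.2 CPM after 6 h, against 101 and 88.6 CPM after 3 h (edgeR log2 fold change -2.42, SE 0.091, adjusted p = 6.94e-18). Pdgfb, a chain of platelet-derived growth factor, was at 10.0 and 10.9 CPM after 6 h, against 51.6 and 54.2 CPM after 3 h (edgeR log2 fold change -2.34, SE 0.091, adjusted p = 1.17e-17). In all 3 genes both 3 h libraries were more than 4-fold above both 6 h libraries. Ifih1, a sensor of double-stranded RNA, Hivep2, a zinc finger transcription factor, Cx3cl1, a membrane-bound chemokine, and Sema7a, a membrane semaphorin, had log2 fold changes of -2.26, -2.21, -2.21 and -2.11. Ccn2, Egr1, Ereg, Ccl2 and Dusp4, described with their groups, completed the list.

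The genes of cholesterol synthesis rose almost as a whole. Of 25 genes of the pathway and its control by SREBP, 24 were higher and 0 lower after 6 h (17.8% and 15.5% of all genes), with a median log2 fold change of 0.86 beside 0.021 for all genes. The exception, named after its value was seen, was the isomerase gene Ebp (log2 fold change 0.21), which passed without the second 3 h library (0.37, edgeR adjusted p = 0.00653) and with library totals (0.24, edgeR adjusted p = 0.0362). Near the start of the pathway, Hmgcs1, which makes HMG-CoA, was at 241 and 248 CPM after 6 h, against 130.0 and 116 CPM after 3 h (edgeR log2 fold change 0.99, SE 0.059, adjusted p = 1.14e-13). Mvd, which makes the isoprene unit, was at 82.7 and 89.2 CPM after 6 h, against 29.7 and 32.6 CPM after 3 h (edgeR log2 fold change 1.46, SE 0.086, adjusted p = 8.25e-14). The enzymes that form and modify the sterol rings follow in the pathway. Lss, which closes them, was at 197 and 185 CPM after 6 h, against 67.2 and 69.8 CPM after 3 h (edgeR log2 fold change 1.48, SE 0.064, adjusted p = 8.36e-17). Nsdhl, a later demethylation enzyme, was at 72.2 and 74.5 CPM after 6 h, against 25.7 and 25.9 CPM after 3 h (edgeR log2 fold change 1.5, SE 0.077, adjusted p = 3.77e-15). Dhcr7, which makes the last step to cholesterol, was at 60.6 and 64.3 CPM after 6 h, against 23.1 and 22.3 CPM after 3 h (edgeR log2 fold change 1.46, SE 0.082, adjusted p = 2.84e-14). No 6 h library overlapped with a 3 h library in any of these 5 genes. Insig1, which holds back SREBP, rose with a log2 fold change of 0.77, and the transcription factor Srebf2 itself rose with one of 0.32. As a description, Hmgcs1 was at 108 and 114 CPM at 0 h and 101 and 97.8 CPM at 12 h, below both 6 h libraries, and Dhcr7 at 35.7 and 31.9 CPM and 25.5 and 26.2 CPM. Lss and Nsdhl were still at 195 and 199.6 CPM and 66.2 and 66.7 CPM at 12 h.

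In fatty acid synthesis, 11 of 14 genes were higher and 0 lower, with a median log2 fold change of 0.33. The desaturase Scd2, the most changed of them, was at 1163 and 1169 CPM after 6 h, against 449 and 391.6 CPM after 3 h (edgeR log2 fold change 1.47, SE 0.058, adjusted p = 1.22e-17). The elongase Elovl6, which lengthens palmitate, was at 71.3 and 76.8 CPM after 6 h, against 30.5 and 28.4 CPM after 3 h (edgeR log2 fold change 1.33, SE 0.076, adjusted p = 4.57e-14). Both genes were near their 6 h level at 0 h, at 1042 and 1095 CPM and 72.2 and 77.7 CPM, so that the 3 h libraries were the low ones of the 3 times. At 12 h Scd2 was at 941 and 924 CPM and Elovl6 at 32.4 and 30.5 CPM. Acly, which makes cytosolic acetyl-CoA, was at 417 and 411 CPM after 6 h, against 273 and 256 CPM after 3 h (edgeR log2 fold change 0.65, SE 0.056, adjusted p = 2.56e-10). Scd1, the related desaturase, was at 222 and 225 CPM after 6 h, against 136 and 127 CPM after 3 h, and the synthase Fasn at 772 and 735 CPM after 6 h, against 597 and 529.7 CPM after 3 h. The members that did not pass were Srebf1, Elovl5 and Acacb, with log2 fold changes of -0.02, 0.09 and 0.21.

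SREBP binds sterol regulatory elements, and the promoter of Hmgcs1 is shown because it is the one of 17 promoters of the cholesterol list that holds the letters TCACNCCAC (N is any base, read on both strands), a form chosen after the data were seen. The promoters here are RefSeq sequences of the mouse build GRCm38.p6, which is older than the build GRCm39 that the submitters' processing notes name, from 250 bases before to 50 bases after a gene's start. The element is in capitals and begins 137 bases before the start (chr13:119690101-119690400, plus strand).
Hmgcs1: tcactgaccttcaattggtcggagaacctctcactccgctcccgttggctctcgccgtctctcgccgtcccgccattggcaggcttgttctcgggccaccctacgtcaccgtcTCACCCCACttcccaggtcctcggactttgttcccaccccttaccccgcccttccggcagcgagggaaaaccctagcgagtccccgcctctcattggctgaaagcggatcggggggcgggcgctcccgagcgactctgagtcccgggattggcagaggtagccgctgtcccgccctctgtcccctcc
These letters stand in 5.9% of the cholesterol promoters, in 0 of 12 promoters of the fatty acid list and in 1.44% of the promoters of 27025 genes. A match of letters describes the sequence and is no evidence of binding.

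ER chaperones rose moderately. Of 21 genes, 14 were higher (66.7%, beside 17.8% of all genes) and 0 lower after 6 h, with a median log2 fold change of 0.27. Hspa5 (BiP), the main Hsp70 of the ER, was at 4039 and 4238 CPM after 6 h, against 3361 and 3425 CPM after 3 h (edgeR log2 fold change 0.29, SE 0.052, adjusted p = 6.88e-05). Sdf2l1, a partner of BiP, was the most changed of the list at 74.1 and 76.6 CPM after 6 h, against 40.2 and 45.5 CPM after 3 h (edgeR log2 fold change 0.81, SE 0.082, adjusted p = 5.08e-09). Ero1a, which drives disulfide formation, was at 180.3 and 196 CPM after 6 h, against 125 and 121 CPM after 3 h (edgeR log2 fold change 0.61, SE 0.063, adjusted p = 8.39e-09). Both 6 h libraries lay above both 3 h libraries for all 3 genes. Manf, a secreted stress protein, and the disulfide isomerases Pdia4 and Pdia6 had log2 fold changes of 0.49, 0.46 and 0.34, and Hsp90b1, the Hsp90 of the ER, and Creld2 had 0.37 and 0.42. The isomerase P4hb was among the 7 that did not pass (0.05). As a description, Hspa5 was already at 3361 and 3425 CPM after 3 h and at 1412 and 1424 CPM at 0 h, and Sdf2l1, at 32.7 and 27.6 CPM at 0 h, was at 140.0 and 154 CPM after 12 h.

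Among 25 genes of ER-associated degradation and the ER stress sensors, 7 were higher and 1 lower, with a median of 0.02, but 3 or 4 were higher when either 3 h library or the second 6 h library was left out. Sel1l, the adaptor of the ligase that sends misfolded proteins to the proteasome, was at 199.6 and 199.6 CPM after 6 h, against 124 and 116 CPM after 3 h (edgeR log2 fold change 0.73, SE 0.053, adjusted p = 8.61e-12). Herpud1, another member of that complex, was at 353 and 362 CPM after 6 h, against 277 and 299 CPM after 3 h (edgeR log2 fold change 0.31, SE 0.052, adjusted p = 2.45e-05). The sensor Eif2ak3 (PERK), a kinase that halts translation, was among the 17 that did not pass (-0.06). Of 27 genes of COPII and COPI vesicles and of the translocon, which carry proteins into and out of the ER, 2 were higher and 2 lower, but 1 was higher without the second 3 h or either 6 h library and 1 was lower without the first 3 h or either 6 h library. With RLE scaling or DESeq2, 1 was higher and 3 lower. With the GC and length correction 3 were higher and 7 lower. The 1 degradation gene that was lower lost its call without the first 3 h or either 6 h library.

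The promoters of Hspa5, Creld2 and Hsp90b1 are shown because they hold the ER stress response element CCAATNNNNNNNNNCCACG, to which ATF6 binds together with NF-Y, in capitals on either strand. It begins 65 bases before the start in Hspa5 (chr2:34771840-34772139, plus strand), 126 bases before it in Creld2 (chr15:88819396-88819695, plus strand), and 212 and 107 bases before it in Hsp90b1 (chr10:86705395-86705694, minus strand).
Hspa5: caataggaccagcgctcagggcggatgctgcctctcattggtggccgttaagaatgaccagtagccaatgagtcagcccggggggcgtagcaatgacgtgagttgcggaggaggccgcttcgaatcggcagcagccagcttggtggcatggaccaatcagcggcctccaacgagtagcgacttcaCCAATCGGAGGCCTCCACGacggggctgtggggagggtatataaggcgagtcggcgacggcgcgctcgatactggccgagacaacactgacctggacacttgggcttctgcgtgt
Creld2: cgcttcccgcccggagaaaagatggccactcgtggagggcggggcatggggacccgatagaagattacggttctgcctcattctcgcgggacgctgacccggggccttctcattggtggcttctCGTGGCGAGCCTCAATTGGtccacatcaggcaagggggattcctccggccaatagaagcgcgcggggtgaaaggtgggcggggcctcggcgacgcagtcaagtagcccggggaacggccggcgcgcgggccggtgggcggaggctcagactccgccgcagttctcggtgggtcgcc
Hsp90b1: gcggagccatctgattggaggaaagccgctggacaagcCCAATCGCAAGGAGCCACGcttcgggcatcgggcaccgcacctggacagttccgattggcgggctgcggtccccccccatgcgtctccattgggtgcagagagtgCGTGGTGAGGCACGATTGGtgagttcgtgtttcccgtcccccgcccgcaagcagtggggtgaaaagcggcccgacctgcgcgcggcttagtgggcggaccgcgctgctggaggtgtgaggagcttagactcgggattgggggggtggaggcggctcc
The element was found in 8 of the 18 promoters of the chaperone list (44.4%) and in 2 of 20 of the degradation list, against 0.14% of the promoters of 27025 genes. The other chaperone genes that hold it are Pdia6, Calr, Canx, Dnajc3 and Ero1b, and all of the 8 but Calr rose.

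**Figure D2:**
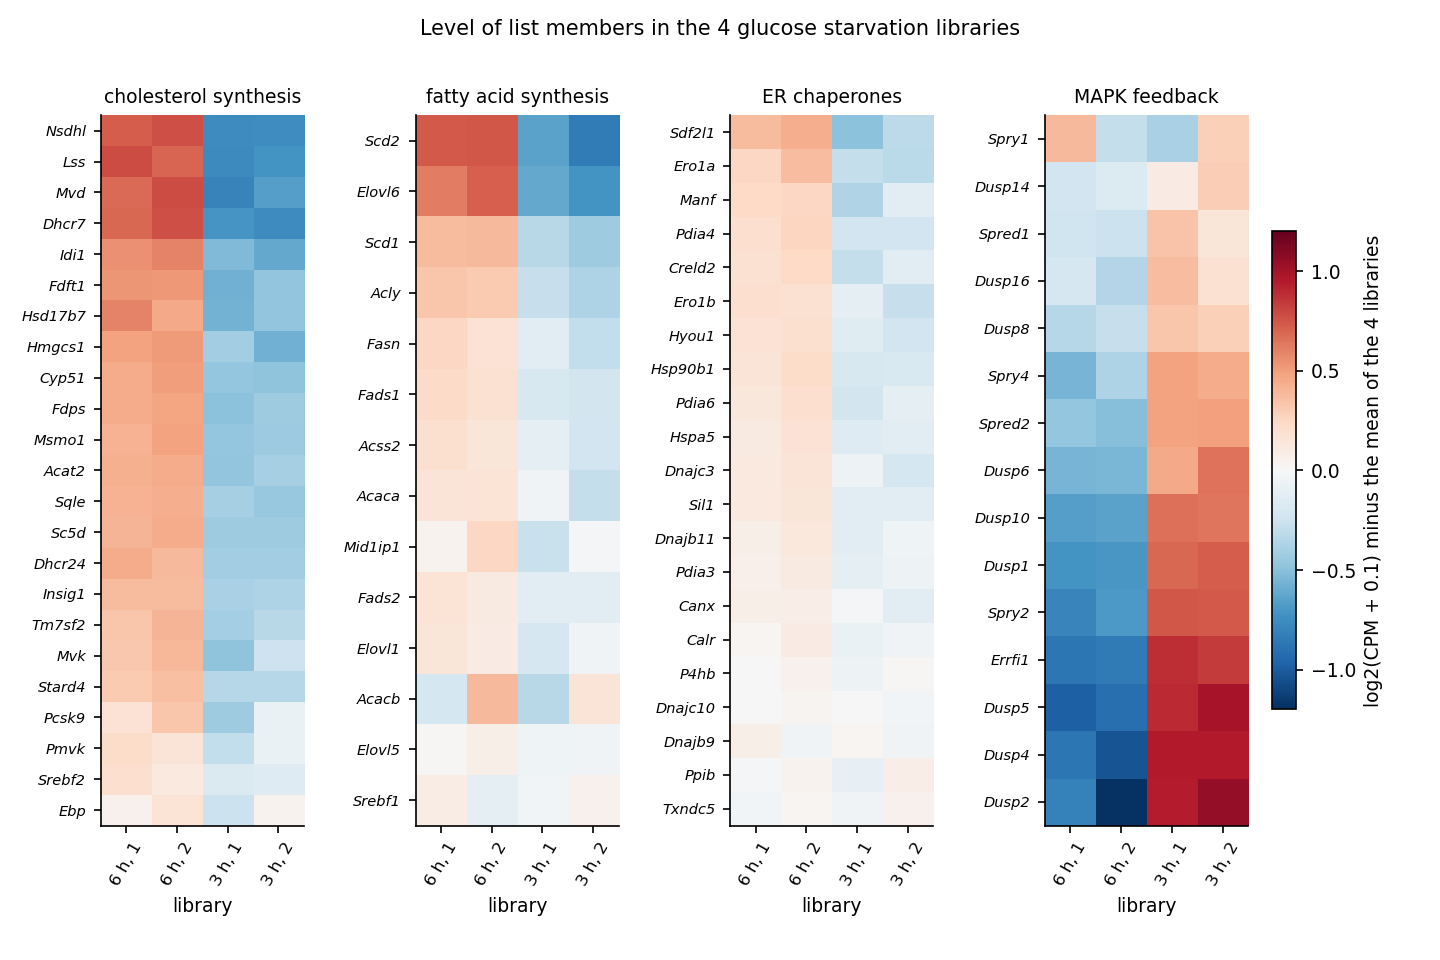
Level of tested members of 4 lists in the 4 libraries of glucose starvation, as log2(CPM + 0.1) minus the gene's mean over the 4 libraries, with genes ordered by their log2 fold change. The 6 h columns are red and the 3 h columns blue for most genes of cholesterol synthesis, fatty acid synthesis and ER chaperones, and the reverse holds for the MAP kinase feedback genes except Spry1.

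Targets of ATF4 and the integrated stress response rose further. Of 36 genes, Atf4 itself among them, 26 were higher and 3 lower after 6 h, with a median log2 fold change of 0.33. These were 72.2% and 8.3% of the list, beside 17.8% and 15.5% of all genes. Atf4 was at 994 and 1027 CPM after 6 h, against 815 and 859.9 CPM after 3 h (edgeR log2 fold change 0.27, SE 0.052, adjusted p = 0.000156). Its partner Ddit3 (CHOP) was at 124 and 125 CPM after 6 h, against 70.1 and 78.5 CPM after 3 h (edgeR log2 fold change 0.74, SE 0.073, adjusted p = 4.63e-09). Trib3, a pseudokinase gene that ATF4 and CHOP induce, was at 148 and 149 CPM after 6 h, against 82.4 and 87.7 CPM after 3 h (edgeR log2 fold change 0.80, SE 0.063, adjusted p = 3.49e-11). The levels of Ddit3 and Trib3 rank from 0 h over 3 h and 6 h to 12 h without overlap, and stood at 317 and 334 CPM and 259 and 275 CPM at 12 h. Cth, which makes cysteine, was at 18.9 and 20.3 CPM after 6 h, against 8.85 and 7.57 CPM after 3 h (edgeR log2 fold change 1.26, SE 0.10, adjusted p = 6.3e-11). Atf5, a related transcription factor, was at 77.4 and 79.5 CPM after 6 h, against 39.4 and 43.5 CPM after 3 h (edgeR log2 fold change 0.92, SE 0.062, adjusted p = 1.53e-12). Asns, asparagine synthetase, was at 385 and 399 CPM after 6 h, against 278 and 292 CPM after 3 h (edgeR log2 fold change 0.46, SE 0.052, adjusted p = 4.39e-08). Not every target rose. The members that fell were Atf3 (-0.42), the cystine carrier Slc7a11 (-0.38) and the cationic carrier Slc7a1 (-0.16), whose call was lost without the first 3 h or either 6 h library (log2 fold change between -0.17 and -0.083). Chac1, which degrades glutathione, was at 131 and 129 CPM after 6 h, against 131 and 145 CPM after 3 h and did not pass. Neither did the mTORC1 inhibitors Sesn2 (71.8 and 69.8 CPM after 6 h, against 70.5 and 70.4 CPM after 3 h) and Ddit4 (71.5 and 73.4 CPM after 6 h, against 61.2 and 66.5 CPM after 3 h). Chac1 passed without the first 3 h library (edgeR adjusted p = 0.0483) and with the GC and length correction (edgeR adjusted p = 0.0455), and Ddit4 without the second 3 h library (edgeR adjusted p = 0.0276) and with library totals as the scaling (edgeR adjusted p = 0.0202), the GC and length correction, the replicate block or a stricter filter (edgeR adjusted p = 0.0134, 0.0466 and 0.0495).

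Genes of amino acid supply moved with them, but the lists are not separate, since some of their genes also stand in the ATF4 list. Among these are the synthetases Wars and Aars, Aldh1l2 and Psat1 of the serine list, and the transporters Slc6a9, Slc7a1 and Slc7a11. Such genes enter both counts. Of 20 aminoacyl-tRNA synthetases, which load tRNAs, 15 were higher and 0 lower, with a median of 0.24. Wars, the tryptophan enzyme, was at 176 and 174 CPM after 6 h, against 104 and 112 CPM after 3 h (edgeR log2 fold change 0.69, SE 0.054, adjusted p = 2.91e-11), and Lars, the leucine enzyme, followed with a log2 fold change of 0.43. Of 12 genes of serine and one-carbon synthesis, 9 were higher and 0 lower, with a median of 0.30. Aldh1l2, a mitochondrial folate enzyme, was at 422 and 426 CPM after 6 h, against 221 and 198 CPM after 3 h (edgeR log2 fold change 1.02, SE 0.058, adjusted p = 4.34e-14). Psph and Psat1, of serine synthesis, had log2 fold changes of 0.54 and 0.47. Of 20 amino acid transporters, 9 were higher and 5 lower (45.0% and 25.0%, beside 17.8% and 15.5% of all genes). Fewer were lower without the first 3 h or either 6 h library, and 3 with library totals as the scaling. Slc7a3 was at 9.72 and 10.2 CPM after 6 h, against 3.88 and 3.12 CPM after 3 h (edgeR log2 fold change 1.51, SE 0.14, adjusted p = 1.09e-09). Slc7a2, another cationic carrier, was at 8.89 and 9.88 CPM after 6 h, against 17.1 and 13.8 CPM after 3 h (edgeR log2 fold change -0.72, SE 0.13, adjusted p = 8.27e-05). The glycine carrier Slc6a9 and the neutral carrier Slc1a5 rose with log2 fold changes of 0.66 and 0.57. The serine and tRNA genes thus moved in one direction and the transporters in both.

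The promoters of Trib3 and Asns are shown because they hold the letters TGATGNAA, the core of the C/EBP-ATF response element that ATF4 binds with C/EBP factors, in capitals on either strand. It begins 14 bases after the start in Trib3 (chr2:152344011-152344310, minus strand) and 23 bases before it in Asns (chr6:7693160-7693459, minus strand).
Trib3: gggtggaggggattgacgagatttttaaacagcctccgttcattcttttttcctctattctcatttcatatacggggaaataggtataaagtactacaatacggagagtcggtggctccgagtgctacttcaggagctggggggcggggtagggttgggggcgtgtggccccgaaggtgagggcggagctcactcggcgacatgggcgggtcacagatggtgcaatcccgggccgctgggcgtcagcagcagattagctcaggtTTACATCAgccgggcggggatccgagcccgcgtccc
Asns: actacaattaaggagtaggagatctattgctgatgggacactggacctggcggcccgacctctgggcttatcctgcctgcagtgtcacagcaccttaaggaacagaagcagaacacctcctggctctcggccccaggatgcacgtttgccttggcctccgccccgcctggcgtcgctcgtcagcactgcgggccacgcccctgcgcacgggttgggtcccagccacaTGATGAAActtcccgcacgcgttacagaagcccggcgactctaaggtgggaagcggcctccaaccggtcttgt
Of 30 promoters of the list, 10 held it (33.3%), against 4.51% of the promoters of 27025 genes. Among the holders, Trib3, Asns, Pck2, Aars, Vldlr and Nupr1 rose, Atf3 and Slc7a11 fell, and Chac1 and Fgf21 did not pass.

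Genes of glucose use moved little as a group. Of 26 glucose transporters and glycolysis genes, 1 was higher and 3 were lower after 6 h, with a median of -0.02. The number that was higher was 2 without the second 3 h library and with the replicate block, 4 with library totals and 0 with RLE scaling or DESeq2. With the GC and length correction 4 were higher and 5 lower. Hk2, the inducible hexokinase, was at 114 and 116 CPM after 6 h, against 174 and 166 CPM after 3 h (edgeR log2 fold change -0.56, SE 0.062, adjusted p = 4.03e-08). Slc2a1, the main glucose transporter of fibroblasts, was at 106 and 113 CPM after 6 h, against 129.7 and 126 CPM after 3 h (edgeR log2 fold change -0.22, SE 0.067, adjusted p = 0.00974), and Pfkm, a subunit of phosphofructokinase, fell as well (-0.29). Without the first 6 h library 1 gene of the list was lower, and the calls of Slc2a1 (edgeR adjusted p = 0.142) and Pfkm (edgeR adjusted p = 0.0913) were lost. The lactate carrier Slc16a1, the one that rose (0.16), lost its call without the second 3 h or the second 6 h library (edgeR adjusted p = 0.121 and 0.207), and under RLE scaling and DESeq2 (adjusted p = 0.0637 and 0.0536). Txnip, whose transcription follows glucose metabolites through MondoA, was at 0.518 and 0.693 CPM after 6 h, against 0.542 and 0.173 CPM after 3 h, with a log2 fold change of 0.78 that did not pass (SE 0.40, edgeR adjusted p = 0.139). It was at 9.59 and 8.28 CPM at 0 h, so that both starved times were below the level of untreated cells. Without the first 3 h library Txnip passed (log2 fold change 1.80, edgeR adjusted p = 0.0132). The list of MondoA and ChREBP targets also holds genes of these factors and their partner. Of its 8 tested genes, 1 was higher and 2 lower, and these counts changed without the first 3 h or the first 6 h library. Klf10, a transcription factor of that list, was at 74.3 and 71.3 CPM after 6 h, against 125 and 122 CPM after 3 h (edgeR log2 fold change -0.76, SE 0.059, adjusted p = 2.93e-11).

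At the entry of pyruvate into mitochondria, 2 of the kinases that close it moved in opposite directions. Pdk4 was at 5.38 and 5.25 CPM after 6 h, against 11.4 and 13 CPM after 3 h (edgeR log2 fold change -1.2, SE 0.12, adjusted p = 2.41e-09), whereas Pdk1 was at 11.8 and 11.7 CPM after 6 h, against 6.65 and 6.04 CPM after 3 h (edgeR log2 fold change 0.89, SE 0.11, adjusted p = 4.69e-07). Of the opposing phosphatases, Pdp2 was at 33.6 and 34.8 CPM after 6 h, against 22.1 and 19.2 CPM after 3 h (edgeR log2 fold change 0.73, SE 0.088, adjusted p = 1.82e-07), and Pdp1 fell (-0.38), a call that was lost without any 1 of the 4 libraries (edgeR adjusted p between 0.0933 and 0.177). Pck2, the mitochondrial enzyme that makes phosphoenolpyruvate and a target of ATF4, was at 325 and 326 CPM after 6 h, against 208 and 216 CPM after 3 h (edgeR log2 fold change 0.62, SE 0.06, adjusted p = 2.33e-09). In the wider list of pyruvate entry, gluconeogenesis and the pentose phosphate pathway, 6 of 21 genes were higher and 4 lower, and 2 were lower without the second 3 h or either 6 h library or with library totals. With the GC and length correction 7 were lower.

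In the hexosamine and glycosylation precursor list, 8 of 20 genes were higher and 3 lower, or 5 higher without the first 3 h or the second 6 h library. Oga, which removes O-GlcNAc from proteins, was at 64.3 and 67.1 CPM after 6 h, against 104 and 101 CPM after 3 h (edgeR log2 fold change -0.64, SE 0.057, adjusted p = 4.8e-10), beside 96.7 and 104 CPM at 0 h and 105 and 102 CPM at 12 h. The 6 h libraries were thus the low ones of the 4 times. Gne, of sialic acid synthesis, was at 12.1 and 12.8 CPM after 6 h, against 5.33 and 6.30 CPM after 3 h (edgeR log2 fold change 1.10, SE 0.13, adjusted p = 1.36e-07). Gfpt1, the first enzyme of the pathway, was at 125 and 128 CPM after 6 h, against 115 and 102 CPM after 3 h (edgeR log2 fold change 0.23, SE 0.061, adjusted p = 0.00425), a call lost without the second 3 h library (adjusted p = 0.104). The glycosyltransferases Alg2 and Alg5, which build the sugar tree for ER glycoproteins, rose with log2 fold changes of 0.53 and 0.40.

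Immediate early genes fell. Of 24 genes, 20 were lower and 0 higher after 6 h (15.5% and 17.8% of all genes), with a median log2 fold change of -1.0. Egr1, a zinc finger transcription factor, was at 7.59 and 7.97 CPM after 6 h, against 31.1 and 31.5 CPM after 3 h (edgeR log2 fold change -2.01, SE 0.08, adjusted p = 1.37e-17). Fosb, which forms part of AP-1, was at 0.748 and 1.04 CPM after 6 h, against 7.34 and 7.42 CPM after 3 h (edgeR log2 fold change -3.03, SE 0.20, adjusted p = 6.85e-13). Egr2, a relative of Egr1, was at 0.288 and 0.446 CPM after 6 h, against 3.13 and 3.35 CPM after 3 h. Egr3, another, was at 0.345 and 0.396 CPM after 6 h, against 3.70 and 3.35 CPM after 3 h. The 6 h libraries of these 4 genes did not overlap with the 3 h libraries. Fos was at 1.96 and 2.10 CPM after 6 h, against 4.18 and 4.74 CPM after 3 h (edgeR log2 fold change -1.13, SE 0.17, adjusted p = 7.77e-06). Myc, a transcription factor of growth, was at 276 and 267 CPM after 6 h, against 377 and 388 CPM after 3 h (edgeR log2 fold change -0.49, SE 0.056, adjusted p = 5.22e-08), still above its 0 h level of 112 and 98.6 CPM. The orphan receptors Nr4a3 and Nr4a1 and the AP-1 subunit Junb had log2 fold changes of -1.86, -1.64 and -1.52. The members that did not pass were Klf2, Zfp36, Nr4a2 and Jund, between -0.27 and 0.29. Klf2 passed with no filter on low counts or with only the groups compared (edgeR adjusted p = 0.019 and 0.0387).

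The CArG box is the binding site of serum response factor, which controls many of these genes, and the promoter of Egr2 is shown as the most changed gene of the list among those with the box. It begins 72 bases before the start (chr10:67537316-67537615, plus strand) and stands in capitals.
Egr2: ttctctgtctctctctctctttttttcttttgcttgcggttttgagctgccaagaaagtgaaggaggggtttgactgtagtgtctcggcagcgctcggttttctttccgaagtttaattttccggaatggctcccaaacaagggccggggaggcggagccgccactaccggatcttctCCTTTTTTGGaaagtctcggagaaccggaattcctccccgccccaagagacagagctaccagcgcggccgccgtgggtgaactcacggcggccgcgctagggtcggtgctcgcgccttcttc
Of 19 promoters of immediate early genes, 3 held the box (15.8%: Egr2, Srf and Zfp36) and 2 held the cAMP response element TGACGTCA (10.5%), against 1.81% and 2.03% of the promoters of 27025 genes. The box also stood in 4 of 18 promoters (22.2%) of the list of actin and SRF (serum response factor) targets. In that list 2 of 21 genes were higher and 2 lower. RefSeq lists 5 starts for Egr2, and 4 of the 5 windows hold a box.

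Feedback inhibitors of the MAP kinase pathway, which immediate early signalling induces, fell as well. Of 15 genes, 14 were lower and 0 higher, with a median log2 fold change of -1.12, and the one that did not pass was Spry1 (0.11). Dusp5, a nuclear phosphatase of ERK, was at 59.8 and 62.7 CPM after 6 h, against 219 and 234 CPM after 3 h (edgeR log2 fold change -1.88, SE 0.067, adjusted p = 1.74e-18). Dusp4, its relative, was at 18.6 and 16.6 CPM after 6 h, against 66.1 and 65.8 CPM after 3 h (edgeR log2 fold change -1.91, SE 0.09, adjusted p = 5.78e-16). Errfi1, which inhibits the EGF receptor, was at 17.5 and 17.8 CPM after 6 h, against 59.2 and 57.6 CPM after 3 h (edgeR log2 fold change -1.73, SE 0.072, adjusted p = 4.57e-17). The Sprouty gene Spry2 and the phosphatases Dusp1 and Dusp6 had log2 fold changes of -1.48, -1.42 and -1.12.

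Among growth factor ligands and the EGF receptor, 16 of 18 genes were lower and 0 higher, with a median of -1.35. The ligands of the EGF receptor Ereg and Areg fell, with Ereg at 17.5 and 15.5 CPM after 6 h, against 66.7 and 62.6 CPM after 3 h. Areg was at 4.46 and 5.20 CPM after 6 h, against 19.8 and 21.2 CPM after 3 h. Hbegf, another ligand, was at 52.7 and 54.3 CPM after 6 h, against 152 and 157 CPM after 3 h (edgeR log2 fold change -1.53, SE 0.061, adjusted p = 1.58e-17). Egfr itself was at 14.2 and 13.5 CPM after 6 h, against 23.1 and 21.1 CPM after 3 h (edgeR log2 fold change -0.67, SE 0.093, adjusted p = 1.4e-06). Inhba and Tgfb2, ligands of the TGF-beta family, had log2 fold changes of -1.65 and -1.57. Hgf was at 0 and 0 CPM after 6 h, against 0.0602 and 0 CPM after 3 h, and Epgn was at 0.518 and 0.148 CPM after 6 h, against 0.181 and 0.144 CPM after 3 h. Neither passed. At 12 h the levels of Lif (2.80 and 2.87 CPM) and Pdgfb (2.34 and 1.91 CPM) were below their 0 h levels (7.02 and 5.65 CPM and 20.9 and 20.2 CPM), as a description.

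Inflammatory genes were lower in 13 of 21 cases and higher in 1, with a median of -1.26. Ptgs2, which encodes cyclooxygenase 2, was at 149 and 153 CPM after 6 h, against 514 and 458 CPM after 3 h (edgeR log2 fold change -1.68, SE 0.059, adjusted p = 1.74e-18). Ccl2, a chemokine for monocytes, was at 31.7 and 31.3 CPM after 6 h, against 116 and 125 CPM after 3 h (edgeR log2 fold change -1.94, SE 0.074, adjusted p = 7.2e-18). The NF-kB feedback gene Tnfaip3 and the subunits Relb and Nfkb1 had log2 fold changes of -1.43, -1.34 and -0.93. The exception that rose, named after its value was seen, was the chemokine Cxcl12 (0.32). Interferon-stimulated genes were lower in 12 of 19 cases and higher in 2, with a median of -0.66. Fewer of them were lower without either 3 h library and without either 6 h library. Ifih1 was at 2.82 and 2.57 CPM after 6 h, against 15.0 and 10.8 CPM after 3 h (edgeR log2 fold change -2.26, SE 0.16, adjusted p = 3.5e-12), beside 14.3 and 14.8 CPM at 0 h and 1.71 and 2.18 CPM at 12 h. Rsad2, an antiviral enzyme, was at 0.575 and 0.743 CPM after 6 h, against 2.41 and 4.71 CPM after 3 h (edgeR log2 fold change -2.42, SE 0.34, adjusted p = 1.94e-06). Stat2 and Irf9, subunits of the interferon-activated transcription factor, rose, with log2 fold changes of 0.94 and 0.34. The call of Irf9 was lost without the second 3 h or the second 6 h library (edgeR adjusted p = 0.0582 and 0.0717).

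**Figure D3:**
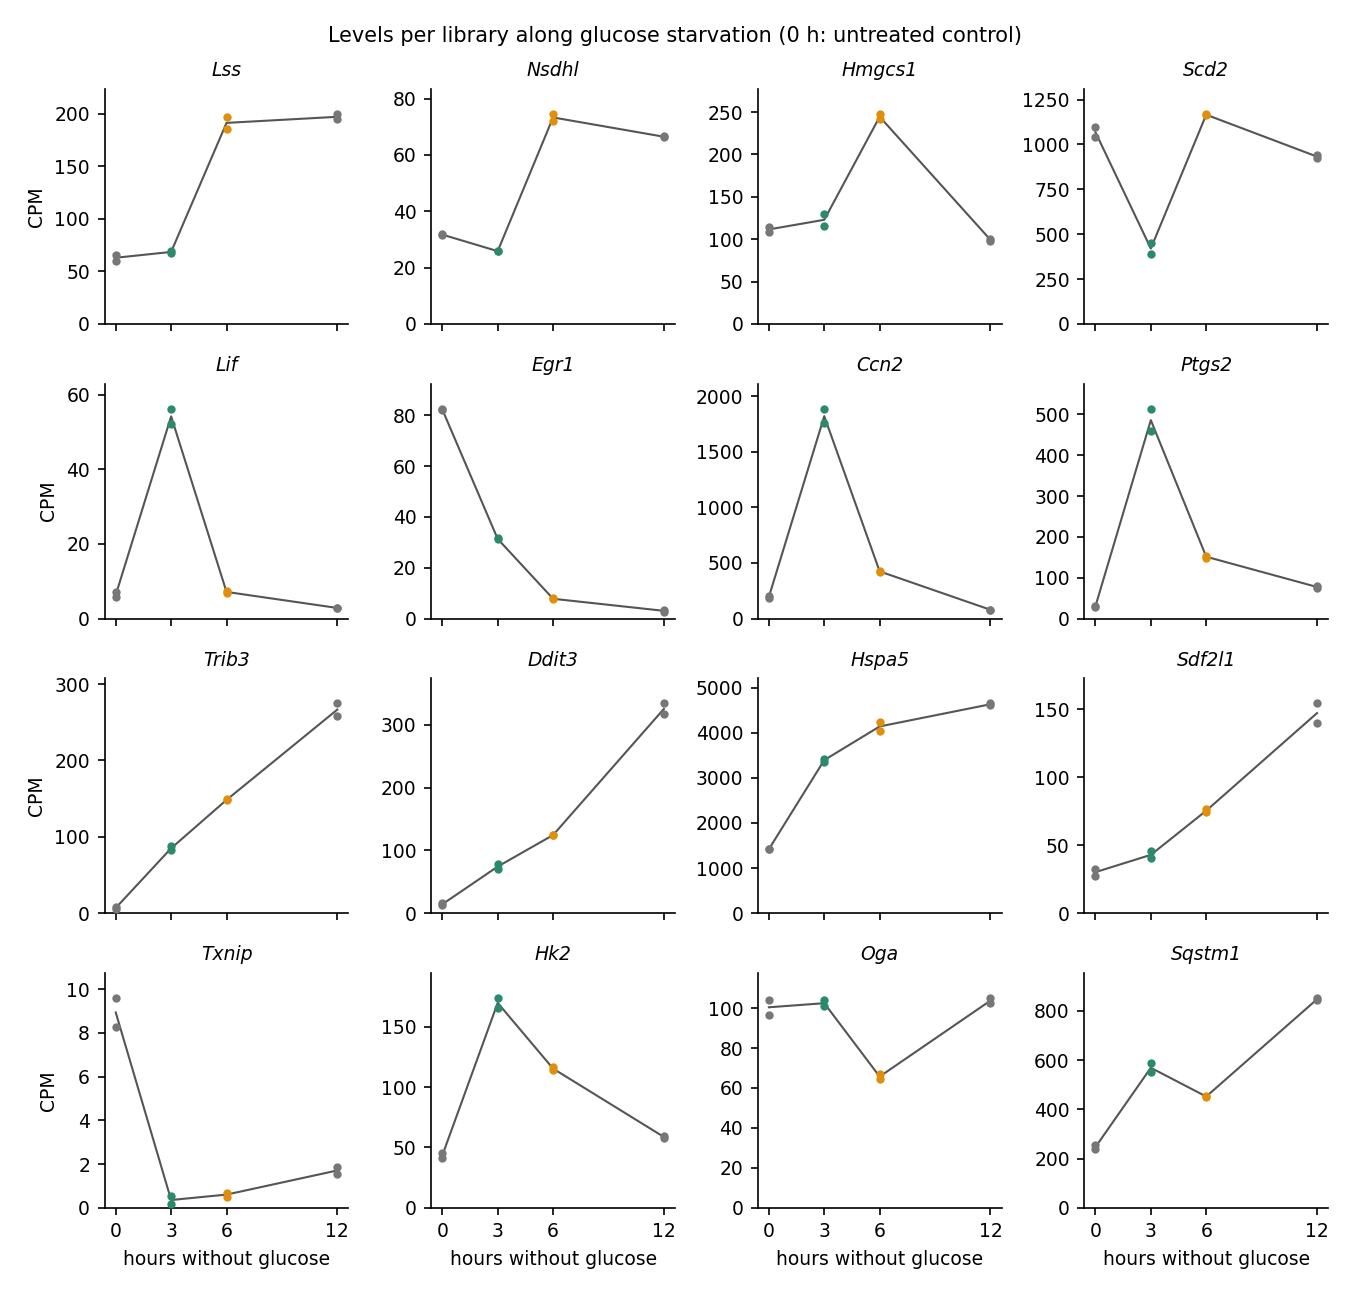
CPM of 16 genes in each of the 2 libraries at 0, 3, 6 and 12 h without glucose (0 h are untreated cells in ordinary serum), with lines through the means. Lss, Nsdhl, Hmgcs1 and Scd2 step up between 3 h and 6 h, Lif, Ccn2 and Ptgs2 peak at 3 h, Egr1 declines throughout, Trib3, Ddit3, Hspa5 and Sdf2l1 climb throughout, and Oga dips at 6 h.

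The list of the transcriptional coactivators YAP and TAZ, which respond to cell shape and matrix, also holds their partners and targets. In it 7 of 15 genes were lower and 0 higher. Ccn2, a secreted matrix protein, was at 419.9 and 428 CPM after 6 h, against 1753 and 1885 CPM after 3 h (edgeR log2 fold change -2.10, SE 0.058, adjusted p = 8.75e-21). Ccn1, its relative, was at 560.1 and 566 CPM after 6 h, against 1119 and 1186 CPM after 3 h (edgeR log2 fold change -1.03, SE 0.052, adjusted p = 2.32e-15). Ankrd1 and Wwtr1, which encodes TAZ, were among the others that fell (log2 fold changes -0.73 and -0.56), and the remaining 8 members, YAP's own gene among them, did not pass. In that list 1 was higher without the first 3 h library and 3 with the GC and length correction. Of 27 matrix genes, 16 were lower and 0 higher, with a median of -0.20. Fewer of them were lower without the first 3 h or either 6 h library. Timp3, an inhibitor of matrix proteases, was at 1917 and 1970 CPM after 6 h, against 3188 and 2932 CPM after 3 h (edgeR log2 fold change -0.65, SE 0.055, adjusted p = 1.69e-10). Col6a1, of collagen VI, was at 160.1 and 156 CPM after 6 h, against 242 and 239 CPM after 3 h (edgeR log2 fold change -0.60, SE 0.057, adjusted p = 1.7e-09). Col1a1, of type I collagen, was at 1689 and 1664 CPM after 6 h, against 1951 and 1873 CPM after 3 h (edgeR log2 fold change -0.19, SE 0.056, adjusted p = 0.0097), and its call was lost without either 6 h library. In the actin and SRF list, of which 4 were lower without the first 3 h library or with DESeq2 and 8 with the GC and length correction, 2 of 21 were higher (Acta2 and Cnn2) and 2 lower (Vcl and Tpm2), and the call of Cnn2 was lost without the first 3 h or the second 6 h library, that of Tpm2 without the second 3 h or the first 6 h library. Vcl, which links actin to adhesions, was at 672 and 681 CPM after 6 h, against 1031 and 934 CPM after 3 h (edgeR log2 fold change -0.54, SE 0.054, adjusted p = 5.56e-09).

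Genes of DNA replication fell mildly. Of 26 genes, 15 were lower and 0 higher, with a median log2 fold change of -0.22. In other settings 1 was higher without the second 3 h library or with the replicate block, and 2 with library totals or the GC and length correction. Gins2, of the replicative helicase, was at 74.0 and 70.1 CPM after 6 h, against 116 and 117 CPM after 3 h (edgeR log2 fold change -0.69, SE 0.062, adjusted p = 5.17e-10). Mcm6, another helicase subunit, was at 173 and 180.4 CPM after 6 h, against 237 and 242 CPM after 3 h (edgeR log2 fold change -0.44, SE 0.052, adjusted p = 1.15e-07). Tyms, which makes thymidylate, was at 56.8 and 58.6 CPM after 6 h, against 75.2 and 81.9 CPM after 3 h (edgeR log2 fold change -0.45, SE 0.062, adjusted p = 1.86e-06). Mitosis genes were divided, with 5 of 21 higher and 6 lower (23.8% and 28.6%, beside 17.8% and 15.5% of all genes). Fewer were lower without the first 3 h or the first 6 h library. In the list of D cyclins and inhibitors of cyclin-dependent kinases, 3 of 15 were higher and 5 lower, or 3 lower without the first 3 h or either 6 h library and 1 higher without the second 6 h library. Mki67, the proliferation marker, was at 235 and 229 CPM after 6 h, against 322 and 267 CPM after 3 h (edgeR log2 fold change -0.34, SE 0.069, adjusted p = 0.000344). Cenpf, of the kinetochore, was at 85.4 and 83.8 CPM after 6 h, against 71.8 and 57.0 CPM after 3 h (edgeR log2 fold change 0.39, SE 0.072, adjusted p = 8.95e-05). Ccnd2, a D cyclin, rose to 339 and 338 CPM after 6 h, against 219 and 199 CPM after 3 h (edgeR log2 fold change 0.69, SE 0.055, adjusted p = 5.65e-11), whereas Ccnd1 was at 232 and 242 CPM after 6 h, against 223 and 219.7 CPM after 3 h and did not pass. The inhibitor of cyclin-dependent kinases Cdkn1a (p21) was at 42.2 and 41.6 CPM after 6 h, against 74.3 and 75.0 CPM after 3 h (edgeR log2 fold change -0.83, SE 0.057, adjusted p = 2.07e-12). Cdkn2c, another inhibitor, was at 23.9 and 23.9 CPM after 6 h, against 37.1 and 37.8 CPM after 3 h (edgeR log2 fold change -0.65, SE 0.088, adjusted p = 1.16e-06).

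Targets of p53 were lower in 11 of 19 cases and higher in 5, with a median of -0.34. These were 57.9% and 26.3% of the list, beside 15.5% and 17.8% of all genes. Fewer were higher without the first 3 h or either 6 h library. Fas, a death receptor, was at 1.21 and 1.71 CPM after 6 h, against 6.56 and 6.09 CPM after 3 h (edgeR log2 fold change -2.11, SE 0.22, adjusted p = 1.18e-08). Pmaip1, which promotes apoptosis, was at 3.39 and 2.77 CPM after 6 h, against 7.34 and 7.31 CPM after 3 h (edgeR log2 fold change -1.25, SE 0.15, adjusted p = 1.44e-07). Plk2, a stress kinase, was at 164 and 168 CPM after 6 h, against 319 and 317 CPM after 3 h (edgeR log2 fold change -0.94, SE 0.053, adjusted p = 3.34e-14). Zmat3 and Aen were among those that rose, with log2 fold changes of 0.44 and 0.44. Targets of NRF2, the regulator of antioxidant genes, were listed with its own gene and that of its inhibitor. Of these 19 genes 11 were lower (57.9%) and 1 higher (5.3%), with the fewest lower without the first 6 h library. Hmox1, which degrades heme, was at 232 and 227 CPM after 6 h, against 389.5 and 413 CPM after 3 h (edgeR log2 fold change -0.81, SE 0.053, adjusted p = 1.02e-12). Srxn1, which repairs peroxiredoxins, was at 22.9 and 24.5 CPM after 6 h, against 41.2 and 44.5 CPM after 3 h (edgeR log2 fold change -0.85, SE 0.077, adjusted p = 5.9e-10). Keap1, the inhibitor of NRF2, was the one that rose (0.37).

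FOXO factors, their targets and insulin feedback genes were lower in 9 of 17 cases, with a median of -0.21. Of that list 2 were higher, and fewer without the second 6 h library. Foxo1 was at 28.1 and 29.6 CPM after 6 h, against 47.7 and 48.3 CPM after 3 h (edgeR log2 fold change -0.73, SE 0.081, adjusted p = 3.5e-08). Cited2, a target, was at 222 and 223 CPM after 6 h, against 353 and 381 CPM after 3 h (edgeR log2 fold change -0.72, SE 0.053, adjusted p = 9.64e-12). Of 20 genes of fatty acid oxidation and PPAR targets, 3 were higher and 9 lower. Angptl4, a secreted inhibitor of lipoprotein lipase, was at 0.230 and 0.0990 CPM after 6 h, against 2.05 and 2.40 CPM after 3 h (edgeR log2 fold change -3.77, SE 0.33, adjusted p = 3.26e-10). Cpt1a, which brings fatty acids into mitochondria, fell with a log2 fold change of -0.67. The list of hypoxia-inducible genes and the factors that induce them was divided, with 5 of 16 higher and 4 lower. These were 31.2% and 25.0% of the list, beside 17.8% and 15.5% of all genes. Vegfa, the angiogenic growth factor, was at 229 and 216 CPM after 6 h, against 437 and 444 CPM after 3 h (edgeR log2 fold change -0.98, SE 0.053, adjusted p = 9.99e-15), far above its 0 h level (34.7 and 35.1 CPM) at both times. Among clock genes, 6 of 19 were lower (31.6%) and 2 higher (10.5%), with fewer higher without either 3 h library or the first 6 h library. Bhlhe40, a repressor of the clock, was at 34.4 and 35.5 CPM after 6 h, against 86.5 and 84.6 CPM after 3 h (edgeR log2 fold change -1.29, SE 0.081, adjusted p = 3.26e-13), and the repressors Nr1d1 and Nr1d2 fell with log2 fold changes of -0.96 and -0.89.

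Genes that build ribosomes rose, and those of the ribosomal proteins stayed near the median of all genes. Of 30 ribosome biogenesis genes, 19 were higher and 1 lower (0 lower without the second 3 h or the second 6 h library), with a median of 0.20. Nop56, of the complex that methylates ribosomal RNA, was at 684 and 686 CPM after 6 h, against 512 and 534 CPM after 3 h (edgeR log2 fold change 0.39, SE 0.055, adjusted p = 2.4e-06). Wdr12, of large subunit assembly, was at 73.8 and 77.8 CPM after 6 h, against 55.1 and 56.6 CPM after 3 h (edgeR log2 fold change 0.44, SE 0.063, adjusted p = 2.26e-06). Of 30 cytosolic ribosomal protein genes, 0 passed in either direction, with log2 fold changes between -0.11 and 0.08. Without the first 3 h library 3 of them were lower, and without the second 1 was higher. Snhg5, a host of small nucleolar RNAs, was at 101 and 106 CPM after 6 h, against 62.2 and 67.7 CPM after 3 h (edgeR log2 fold change 0.67, SE 0.062, adjusted p = 1.01e-09). In the list of 13 such hosts and other noncoding RNAs, 6 were higher and 2 lower, with 4 higher without the first 3 h or the second 6 h library and 1 lower without any 1 of the 4 libraries. Neat1, the scaffold of paraspeckles, was at 1156 and 1154 CPM after 6 h, against 1731 and 1770 CPM after 3 h (edgeR log2 fold change -0.60, SE 0.052, adjusted p = 3.05e-10). Of 21 translation factors 7 were higher and 1 lower, or 4 higher without the second 6 h library and 0 lower without either 6 h library, while 4 were lower with DESeq2 or the GC and length correction, with Eef2k, the kinase that slows elongation, at 64.1 and 60.3 CPM after 6 h, against 41.1 and 42.6 CPM after 3 h (edgeR log2 fold change 0.57, SE 0.081, adjusted p = 2.08e-06).

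For core genes of autophagy, the subject named in the title of the series, the shares called were near or below those of all genes. Of 36 core genes, 6 were higher (16.7%, beside 17.8% of all genes) and 4 lower (11.1%, beside 15.5%), with a median of 0.05. Fewer were higher without the second 3 h or either 6 h library, and fewer lower without the first 6 h library. The ATG8 genes Map1lc3a and Gabarapl2 fell (-0.40, a call lost without the first 6 h library with edgeR adjusted p = 0.135, and -0.25), and the conjugation gene Atg3 rose (0.32). Map1lc3b was at 103 and 108 CPM after 6 h, against 105 and 120.3 CPM after 3 h and did not pass (log2 fold change -0.10). It passed as lower without the first 3 h library (-0.194, edgeR adjusted p = 0.0213), with the longest transcript (-0.252, edgeR adjusted p = 0.049) and with the GC and length correction (-0.129, edgeR adjusted p = 0.0259). Ulk1, which encodes the initiating kinase of autophagy, was at 29.2 and 28.9 CPM after 6 h, against 34.4 and 29.6 CPM after 3 h and did not pass. Without the second 3 h library Ulk1 passed (log2 fold change -0.24, edgeR adjusted p = 0.0382). Sqstm1 (p62), the best known cargo receptor, was at 454 and 451 CPM after 6 h, against 551 and 587 CPM after 3 h (edgeR log2 fold change -0.33, SE 0.052, adjusted p = 1.1e-05), below its 3 h level but above 256 and 238 CPM at 0 h. Of 18 cargo receptors, 4 were higher, among them Calcoco1 (0.44) and the ferritin receptor Ncoa4 (0.41), and 4 lower, which is 22.2% in each direction. Fewer were higher without the first 3 h or the first 6 h library, and 7 were lower with the GC and length correction. Of 39 lysosome genes, 6 were higher (15.4%) and 7 lower (17.9%), near the shares of all genes. Fewer were lower without the first 3 h or either 6 h library. Neu1, a sialidase, was at 52.95 and 56.6 CPM after 6 h, against 39.2 and 42.4 CPM after 3 h (edgeR log2 fold change 0.43, SE 0.071, adjusted p = 2.52e-05). Flcn, which controls the lysosomal factors TFEB and TFE3, was at 91.0 and 81.8 CPM after 6 h, against 66.8 and 74.0 CPM after 3 h (edgeR log2 fold change 0.29, SE 0.063, adjusted p = 0.000508). In the AMPK and mTORC1 list, 9 of 29 were higher and 2 lower, or 5 higher without the second 6 h library and 1 lower without it or the first 3 h library. By contrast, 4 were lower with RLE scaling, DESeq2 or the replicate block. Castor2 and Nprl2, which restrain mTORC1 when amino acids are low, rose (0.71 and 0.52), and Sesn3 fell (-0.43).

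Large constitutive groups changed little in the median, but their list medians lay below the 0.021 of all genes. The nuclear genes of the respiratory chain lay between -0.23 and 0.01, and 20.0% of them were lower, beside 15.5% of all genes. In the proteasome list 33.3% were lower and 4.8% higher, beside 15.5% and 17.8% of all genes. Of 30 nuclear genes of the respiratory chain, 0 were higher and 6 lower, with a median of -0.12, but 0 were lower without the first 6 h library, 2 without the second 3 h library, 19 without the first 3 h library and 12 with RLE scaling. Of 21 proteasome genes, 1 was higher and 7 lower, or 2 lower without the first 6 h library, 4 without the second 3 h library, 13 without the first 3 h library, 12 with RLE scaling or the replicate block and 15 with the GC and length correction, and 0 were higher without the first 3 h or either 6 h library. Of 15 transcripts of the mitochondrial genome, mt-Cytb fell (-0.27) and the others did not pass, whereas 4 were lower with DESeq2 or the replicate block, 7 with the GC and length correction and 3 without either 3 h library. Of 22 heat shock and cytosolic chaperone genes, 2 were higher and 4 lower (2 lower without the first 6 h library, 1 higher without the first 3 h or the second 6 h library, 4 higher with library totals or the GC and length correction), and Hspa8, the constitutive Hsp70, was at 4949 and 5090 CPM after 6 h, against 4429 and 4610 CPM after 3 h (edgeR log2 fold change 0.15, SE 0.05, adjusted p = 0.019), a call lost without the first 3 h or the second 6 h library.

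**Figure D4:**
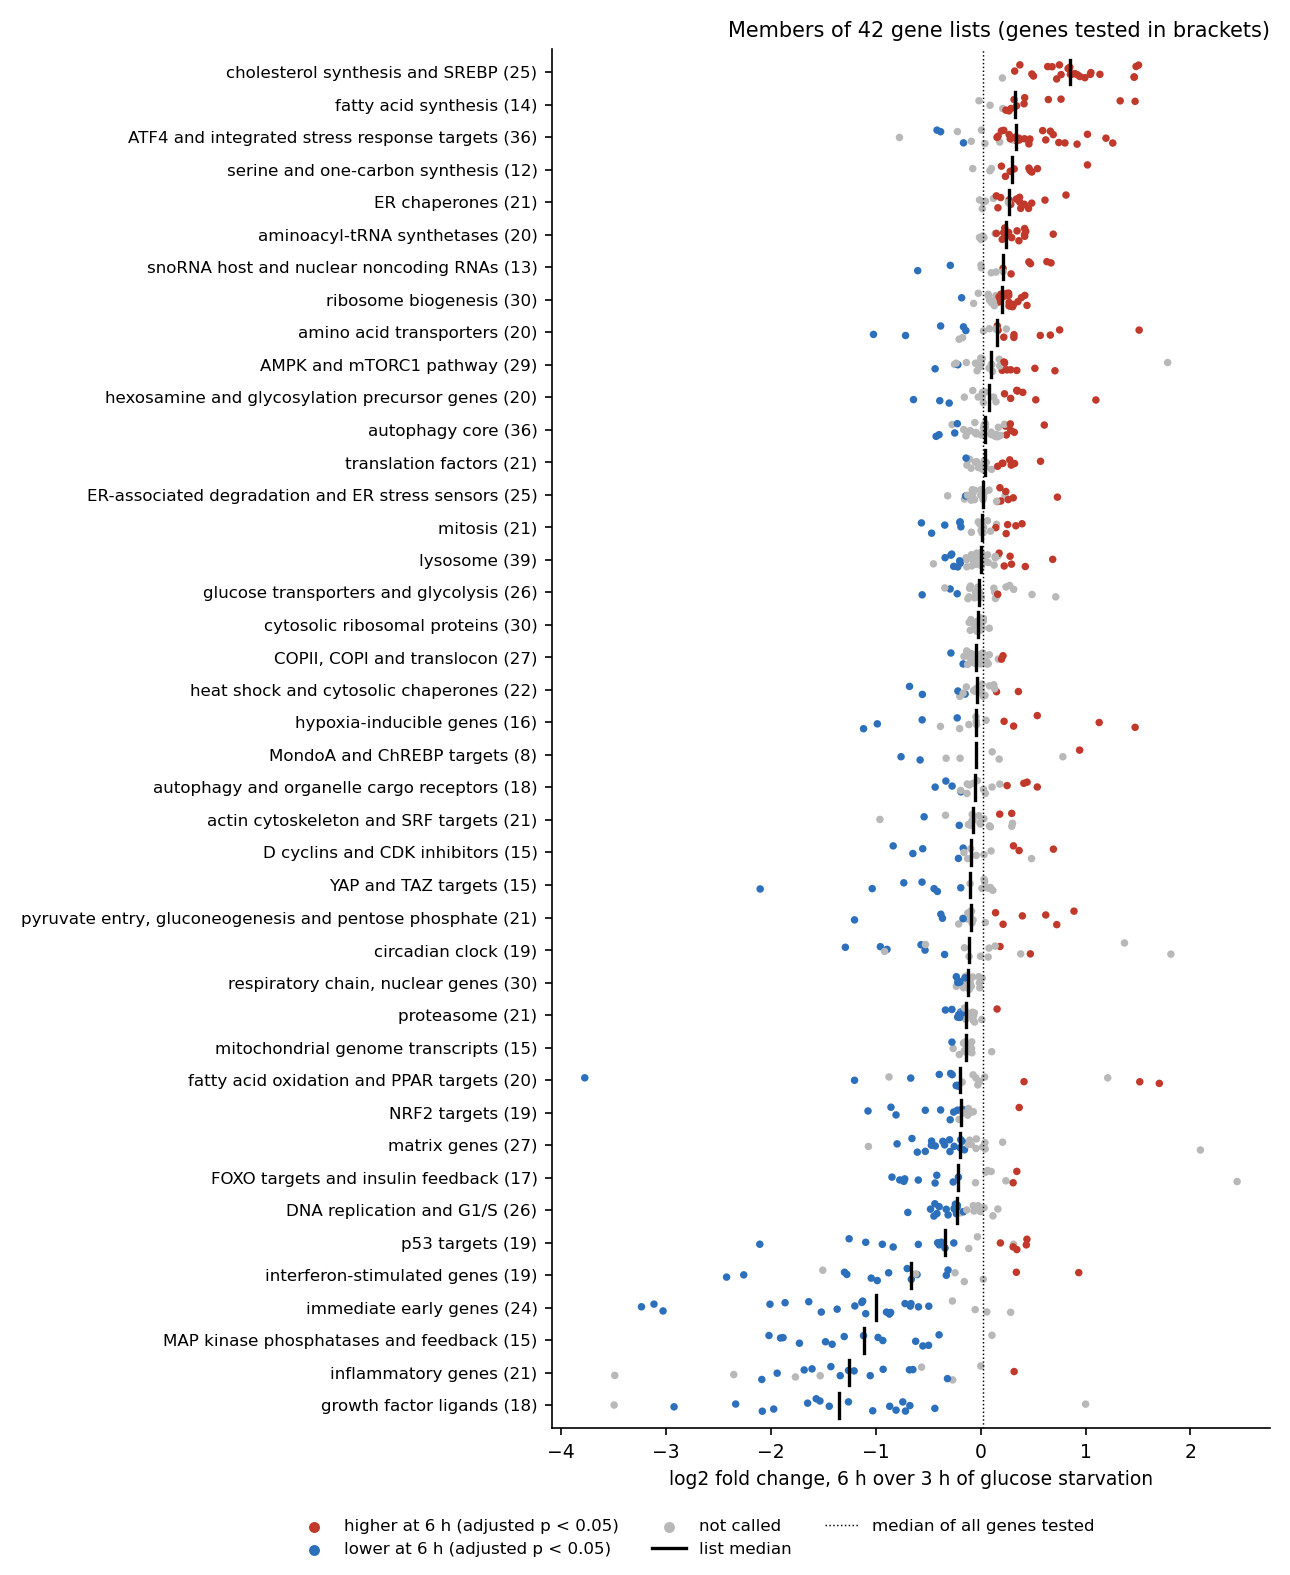
Log2 fold change (6 h over 3 h of glucose starvation, horizontal axis) of every tested member of 42 gene lists, ordered by the list median (black bars), with the median of all genes tested dotted. Cholesterol synthesis stands highest with a median of 0.86, and immediate early genes, MAP kinase feedback, inflammatory genes and growth factor ligands stand lowest with medians between -1.0 and -1.35.

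Whether the change between 3 h and 6 h differed between glucose and amino acid starvation was tested as the difference of the 2 log2 fold changes, which share no library. It passed in 5106 of 17696 genes (28.9%), of which 2892 were higher in glucose starvation (16.3% of those tested) and 2214 lower (12.5%). With library totals as the scaling, 46.6% instead of 56.6% of these calls were higher. Across genes, which are not independent replicates, the 2 changes correlated with r = 0.362 and rho = 0.42. In amino acid starvation alone, 8867 genes (50.1%) passed, of which 4375 (24.7%) were higher and 4492 (25.4%) lower after 6 h. A set of 630 genes was called in opposite directions in both starvations and in the test of the difference.

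Sterol genes set the starvations apart. All 25 genes of the cholesterol list had a higher change in glucose starvation by the test of the difference, and in amino acid starvation 21 of them fell and 1 rose between 3 h and 6 h. Hmgcs1 was at 31.3 and 32.3 CPM after 6 h of amino acid starvation, against 42.0 and 40.7 CPM after 3 h, where glucose starvation gave a rise (difference of log2 fold changes 1.37, SE 0.088, edgeR adjusted p = 1e-12). Nsdhl was at 7.604 and 6.46 CPM after 6 h of amino acid starvation, against 14.1 and 13.8 CPM after 3 h (difference of log2 fold changes 2.50, SE 0.12, edgeR adjusted p = 1.43e-15). Scd2 was at 122 and 123 CPM after 6 h of amino acid starvation, against 304 and 302 CPM after 3 h (difference of log2 fold changes 2.77, SE 0.082, edgeR adjusted p = 3.43e-20). Elovl6 differed most among the named genes, at 7.18 and 7.78 CPM after 6 h of amino acid starvation, against 27.5 and 28.1 CPM after 3 h (difference of log2 fold changes 3.22, SE 0.12, edgeR adjusted p = 2.69e-18). In all 4 genes both 6 h libraries lay above both 3 h libraries in glucose starvation and below them in amino acid starvation. In the fatty acid list 13 of 14 had a higher change in glucose starvation and 1 a lower one.

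ER chaperones also differed, with a higher change in glucose starvation for 17 of 21 and a lower one for 1, and 16 of 21 fell in amino acid starvation. Hspa5 was at 1325 and 1312 CPM after 6 h of amino acid starvation, against 1633 and 1705 CPM after 3 h (difference of log2 fold changes 0.63, SE 0.073, edgeR adjusted p = 1.29e-07). Pdia4 was at 87.8 and 86.9 CPM after 6 h of amino acid starvation, against 177 and 187 CPM after 3 h (difference of log2 fold changes 1.52, SE 0.073, edgeR adjusted p = 1.59e-15). Of the actin and SRF list, 17 of 21 had a higher change in glucose starvation and 0 a lower one, and 17 fell in amino acid starvation. Cnn2, an actin-binding calponin, was at 26.9 and 27.3 CPM after 6 h of amino acid starvation, against 204 and 200.4 CPM after 3 h (difference of log2 fold changes 3.08, SE 0.082, edgeR adjusted p = 3.11e-21). Of 22 heat shock genes, 15 had a higher change in glucose starvation, and Hspa8 was at 1162 and 1153 CPM after 6 h of amino acid starvation, against 2927 and 2963 CPM after 3 h (difference of log2 fold changes 1.5, SE 0.071, edgeR adjusted p = 1.34e-15).

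Cell cycle genes went the other way. Of 21 mitosis genes, 0 had a higher and 17 a lower change in glucose than in amino acid starvation, where 18 rose, and of 26 replication genes 1 had a higher and 19 a lower change. Mki67 was at 725 and 708 CPM after 6 h of amino acid starvation, against 461 and 466 CPM after 3 h (difference of log2 fold changes -0.97, SE 0.098, edgeR adjusted p = 1.82e-08). Rb1, the retinoblastoma gene, was at 12.4 and 11.4 CPM after 6 h, against 18.2 and 16.6 CPM after 3 h of glucose starvation and at 59.98 and 60.4 CPM after 6 h of amino acid starvation, against 36.1 and 32.9 CPM after 3 h (difference of log2 fold changes -1.36, SE 0.13, edgeR adjusted p = 2.32e-09). Oga, which fell in glucose starvation, was at 409.9 and 419 CPM after 6 h of amino acid starvation, against 329 and 336 CPM after 3 h (difference of log2 fold changes -0.96, SE 0.078, edgeR adjusted p = 1.39e-10). Many of the early genes fell in both starvations. Of 24 immediate early genes 20 fell in each, and the test of the difference called 14 higher and 4 lower in glucose starvation. For Lif, Dusp4 and Fosb the difference of -0.11, -0.13 and -0.19 did not pass, with standard errors of 0.14, 0.13 and 0.25. Ccn2 fell in both, and by less without glucose (difference of log2 fold changes 1.66, SE 0.08, edgeR adjusted p = 1.6e-15). Of the 36 genes of the ATF4 list, 26 rose in glucose and 23 in amino acid starvation, and the difference was called higher in 10 and lower in 6. Among them, Ddit3 had 92.8 and 105 CPM after 6 h of amino acid starvation, against 97.1 and 101 CPM after 3 h (difference of log2 fold changes 0.74, SE 0.10, edgeR adjusted p = 2.14e-06), and Asns a lower change in glucose starvation (difference of log2 fold changes -0.35, SE 0.072, edgeR adjusted p = 0.00047).

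**Figure D5:**
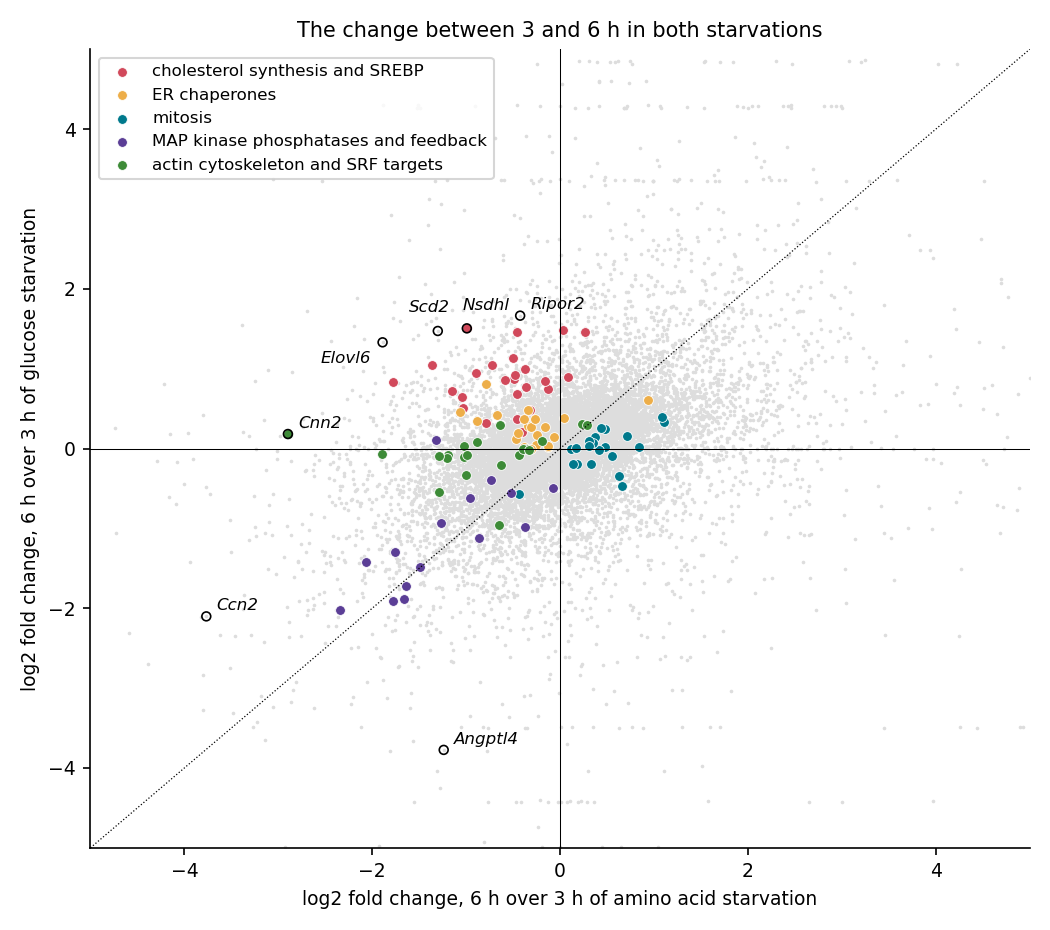
Log2 fold change of 6 h over 3 h in glucose starvation (vertical axis) against that in amino acid starvation (horizontal axis) for the genes tested (grey), with 5 lists coloured, 7 genes circled and 131 genes outside the plotted range. Genes of cholesterol synthesis and most ER chaperones lie in the upper left part, mitosis genes at the right near a glucose change of 0, and MAP kinase feedback genes in the lower left.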

How the data were processed

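RNA of MEFs was sequenced in 14 libraries, of which the 4 of glucose starvation at 6 h and 3 h are compared. The authors deposited 1 table of raw read counts per transcript, with no normalization. The submitters' processing notes name STAR, bedtools and the mouse build GRCm39, while versions, annotation, strand setting and counting rule are not given in the sources used here. Counts under 50 were even in 66.7% to 70.5% of cases, whereas those above 500 were even in 49.1% to 51.3%, so mates of a pair may have been counted apart. Halving the counts was therefore tried, an alternative chosen after seeing the data, as were the longest transcript per gene and a correction for GC content and length.

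Of 67457 rows, 58 were without a gene name and had 0% of the reads. For each gene the transcript with the highest sum over all libraries was kept. Genes were filtered with filterByExpr, scaled with TMM and fitted in edgeR 4.0.16 (limma 3.58.1, R 4.3.3) with glmQLFit (robust) on 7 group means, which gives 7 residual degrees of freedom and a biological coefficient of variation of 5.78%. The threshold was a Benjamini-Hochberg adjusted p of 0.05 over all 17696 genes. Standard errors are the log2 fold change divided by the square root of the F statistic. CPM of few reads are imprecise, and p-values rest on the spread between the 2 libraries of a group, pooled over all 7 groups. Replicates correlated with r = 0.990 at 6 h and 0.988 at 3 h, and differed by more than sampling noise (chi-square per degree of freedom 3.33 at 6 h and 11.5 at 3 h). In counts simulated for the comparison of 6 h with 3 h (16555 genes), only 200 genes were given a change. Of those with log2 changes of 0.5, 1 and 2, 59.7%, 77.6% and 98.5% were recovered, with 10 false among 167 calls. In the data 33.3% of the genes tested passed, and the adjusted p depends on how many genes change. The simulated rates therefore cannot be taken as those of the comparison itself.

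Named genes were a panel of 28, the 12 largest changes in each direction among called genes whose mean log2 CPM reached 3, up to 4 called members of each of 42 lists and the 6 that differed most from amino acid starvation, and some of these are not reported here. The members, lists and tests were chosen with earlier results of these data known. Gene overlaps and GC content (98.1% of tested genes) came from an annotation of GRCm38, used for no coordinates, and promoters from RefSeq GRCm38.p6. Alternatives were RLE size factors, library totals, DESeq2 1.42.0, other filters on low counts, a replicate block, only the groups compared and each library left out.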

Additional observations from a re-analysis of the deposited data

Results flagged for a closer look

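Some genes changed differently between 3 h and 6 h in glucose and in amino acid starvation by edgeR's test of the difference of the log2 fold changes, and these are the 6 with the largest differences among the genes named by the rule. Elovl6, a fatty acid elongase, had a difference of 3.22 (glucose 1.33, amino acid starvation -1.89). Cnn2, an actin-binding calponin, had a difference of 3.08 (glucose 0.18, amino acid starvation -2.90), and its own call in glucose starvation was lost without the first 3 h library or the second 6 h library. Scd2, a desaturase, had a difference of 2.77 (glucose 1.47, amino acid starvation -1.30). The difference of Nsdhl, a sterol enzyme, was 2.50 (glucose 1.5, amino acid starvation -0.99), and that of Ripor2, an inhibitor of RhoA, 2.09 (glucose 1.66, amino acid starvation -0.43).

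Angptl4, the secreted inhibitor of lipoprotein lipase, fell in both starvations and more without glucose, with a difference of -2.53 (glucose -3.77, amino acid starvation -1.24). Its 6 h level without glucose rests on few reads, so the size of this difference is imprecise. It was at 0.230 and 0.0990 CPM after 6 h, against 2.05 and 2.40 CPM after 3 h without glucose, and at 7.93 and 7.22 CPM after 6 h without amino acids, against 17.8 and 17.97 CPM after 3 h. No group of the comparison has 4 or more libraries, so that no library could be tested as an outlier.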

How the results depend on the processing

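No total moved by over 1.5 times. The 5898 calls became 5859 with RLE size factors, 6129 with library totals, 5697 with DESeq2, 5773 without and 5861 with a stricter filter, 5100 with only the groups compared, 5799 with halved counts, 5878 with the longest transcript and 6760 with a GC and length correction. Without 1 library each, 4244 to 5089 genes were called, 2193 to 2704 higher, 1930 to 2473 lower and 757 to 868 by at least 2-fold, and 4110 to 5086 differed between the starvations. Same-numbered libraries deviated together with r = 0.11 over 9769 genes, but 2 pairs do not establish a pairing, and with a replicate block 6206 genes were called and 5419 differed. Of 3374 values of named genes under the alternatives, 3261 kept direction and side of the threshold, 81 lost and 16 gained a call, and 16 changed sign, none of them called. Sesn2 turned to -0.019 (RLE, DESeq2), -0.017 (no filter), -0.01 (only the groups compared) and -0.015 (halved counts), and Srebf1 to 0.021 (library totals). Without 1 library each, Sesn2 ranged from -0.007 to 0.03, Map1lc3b from -0.194 to 0.002, Srebf1 from -0.114 to 0.085, Acacb from -0.151 to 0.503, Spry1 from -0.327 to 0.576, Epgn from -0.12 to 1.658 and Hgf from -4.472 to 0. The causes were not tested. Of 1176 counts of list members, 169 moved by over 1.5 times. Counts over all genes moved as well. Against 2749 lower genes, 3047 were lower with RLE size factors, 3158 with the GC and length correction, and fewer without any 1 of the 4 libraries. The changes of list counts given above are not set against these shifts, so part of them may be general. Low counts limit Hgf, Epgn, Txnip, Angptl4 and similar genes.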
